A study of Mus musculus with 64 samples.

Results

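KPC1 is a murine pancreatic tumour line, and its response to 48 h of coculture with fibroblasts was measured by RNA sequencing. The 8 KPC1 libraries, 4 from mono-culture and 4 from tumour cells recovered after coculture, were chosen by the line and culture named in their labels, out of 64 libraries of 8 lines in all. The other 56 libraries came from clones E, H and V (group 1) and K, M, N and T (group 2), each with 4 libraries per culture. These clones were isolated from 1 KPC tumour carrying a mutant Trp53 allele with Pdx1-Cre, a driver that acts in the pancreatic epithelium. The labels give a mixed C57BL/6 strain background for all 64 libraries, place KPC1 in neither metabolic group, and state neither the alleles of KPC1 nor whether it is clonal. Tumour cells were sorted from coculture by green fluorescence specific to them, and nothing states that the mono-cultures were sorted as well. Nothing says that libraries of 1 line and culture came from separate cultures, so that p-values measure the spread between libraries, which may be technical.

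Fibroblasts are the main stromal cells of pancreatic tumours. They lay down collagen matrix and secrete growth factors, cytokines and metabolites that act on tumour cells. Tumour cells under such signals are known to adjust protein folding, amino acid supply, lipid synthesis, immune signalling and proliferation, and each of these programs has well-known target genes. Lists of such genes are described here by how many of their tested members rose or fell, beside the same share over all genes.

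Levels are given as CPM, counts scaled to the library total after TMM normalization, a correction for the make-up of each library. KPC1 library totals ran from 11178721 to 17038294 counts, the lowest being coculture replicate 2, and libraries of KPC1 from the same culture differed by more than counting noise. The cells expressed the keratins Krt8 and Krt18 and the adhesion gene Cdh1, which mark epithelium, at 688 ± 110, 1212 ± 99.7 and 145 ± 18.1 CPM in mono-culture (SD, n = 4). Epcam, a further epithelial marker, was near 0, with 2 counts over the 4 mono-culture libraries and 4 over the 4 coculture libraries. Other epithelial and ductal genes were mixed in mono-culture. Krt19 and Sox9 were at 540 and 285 CPM, whereas Krt7, Grhl2 and Cldn4 were at 0.922, 0.983 and 0.0142 CPM. Of the 27 genes of that list, 3 had no count in mono-culture, namely Krt20, St14 and Rab25. Acinar and islet markers summed to at most 0.283 CPM in any KPC1 library, and the leukocyte markers Lyz2, Tyrobp and C1qa had no count in any of the 8.

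Transcripts that mark fibroblasts were higher in the cells sorted from coculture. The summed level of 20 fibroblast markers was 894, 928, 531 and 831 CPM in the mono-culture libraries of KPC1 and 2284, 1193, 1698 and 2029 CPM in its coculture libraries. Every coculture library was above every mono-culture library, and the difference of 1005 CPM had a two-sided exact permutation p of 0.0286, the smallest that 4 against 4 libraries allow. Coculture replicate 2 had the lowest sum of the 4. Thy1, a surface protein of fibroblasts, had no count in mono-culture and 19.2, 10.8, 13.9 and 19.1 CPM in coculture. Postn, a matrix protein, was likewise at 0 in mono-culture and at 40.1, 13.3, 34.4 and 64.7 CPM in coculture. Lum, by contrast, had 1 count over all 8 libraries, and the mono-culture sum came mostly from Fbln2, at 641 ± 163 CPM. Across the clones, mean coculture sums ran from 1143 to 2424 CPM, and the KPC1 mean of 1801 CPM lay between them. Fewer cells of a type and less RNA per cell cannot be told apart in bulk RNA. RNA of fibroblasts and expression of these genes by the tumour cells cannot be told apart here either, and the part of these transcripts in each result that follows was not tested.

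**Figure D1:**
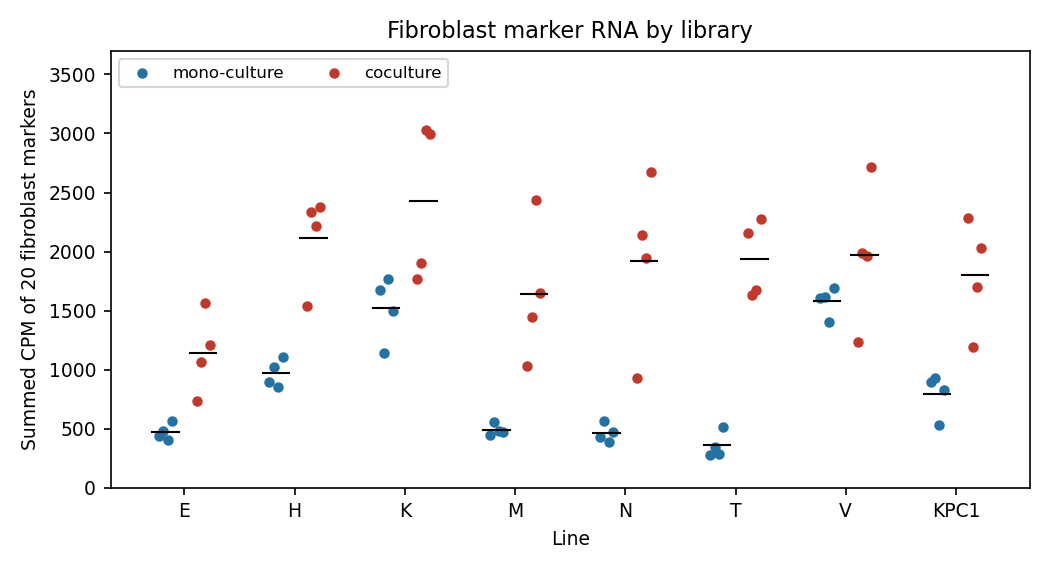
Summed CPM of 20 fibroblast markers (y axis) in each library, by line (x axis), in mono-culture (blue) and coculture (red), with a black bar at the mean of 4 libraries. KPC1 coculture libraries sit between 1193 and 2284 CPM, all above the KPC1 mono-culture libraries, which reach 928 CPM.

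Of 14134 genes tested, 5534 (39.2%) changed in KPC1 at an adjusted p-value under 0.1, with 2846 (20.1%) higher and 2688 (19%) lower in coculture. The log2 fold change was at least 1 in size for 1189 of these called genes (8.41% of all genes). The 4 coculture libraries lay wholly above or below the 4 mono-culture libraries for 3334 genes (23.6%), above for 1690 (12%) and below for 1644 (11.6%). Coculture replicate 2 weighed on the genes that rose, since without it 1764 of the same 14134 genes rose and 2313 fell. Library numbers in the labels formed 2 series, and what the series stand for is not stated. KPC1 had 1 mono-culture and 3 coculture libraries in the first and 3 and 1 in the second, so that series and culture were partly confounded. When libraries were scaled by their totals alone, 2118 of 5408 calls of the KPC1 coculture response were higher. The response had 4705 calls with the series as a covariate, 2763 in the first series alone and 383 in the second alone, where KPC1 had a single coculture library.

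Among the genes with the largest rises in KPC1 were matrix and contractile genes that fibroblasts are known to express. Postn was at least 885-fold and Thy1 at least 354-fold higher, each against a floor of 3 counts over the 4 mono-culture libraries, or 0.0455 CPM. Acta2, the smooth muscle actin of myofibroblasts, rose from 0 counts to 14.3, 4.06, 20 and 17.7 CPM, at least 328-fold. Lox, which cross-links collagen, had 1 count in mono-culture and 27.1 ± 13.9 CPM in coculture (SD, n = 4), a ratio of 1880 with an exact 95% counting interval from 337 to 74284. Collagens with counts in every mono-culture library were also higher. Col1a1 went from 14.6 ± 3.97 to 229 ± 96.2 CPM, a log2 fold change of 3.98 ± 0.45 (SE; adjusted p = 5.08e-09), and Col3a1 from 20.2 ± 7.31 to 182 ± 83.1 CPM (3.17 ± 0.42; 3.1e-07). Cd68, a lysosomal glycoprotein that is abundant in macrophages, was the single leukocyte marker to pass the filter, and it rose from 10.2 ± 4.0 to 36.5 ± 7.38 CPM.

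The largest falls included channels, receptors and developmental regulators. Kcnh1, a potassium channel, was at 5.49, 6.42, 13.4 and 5.03 CPM without fibroblasts and at 0.666, 0.189, 0.557 and 0.0633 CPM with them, a log2 fold change of -4.29 ± 0.63 (adjusted p = 1.79e-06). Stra6, a retinol receptor, fell from 6.49 ± 1.24 to 0.337 ± 0.219 CPM, and Wnt4, a Wnt ligand, from 11.8 ± 6.00 to 1.25 ± 0.459 CPM. Lgr5, a Wnt target and stem cell receptor, fell from 7.61 ± 4.06 to 0.440 ± 0.459 CPM. Tbx2, a developmental transcription factor, was at 13.6, 18.8, 25.3 and 28.1 CPM in mono-culture and at 2.13, 2.55, 2.66 and 1.52 CPM in coculture. Groups did not overlap for any of these genes, which the rule for naming the largest changes required. Ceacam1, an epithelial adhesion molecule, fell by 2.70 ± 0.37 on the log2 scale. Of 20 tested epithelial and ductal genes, 6 fell and none rose, beside 19% and 20.1% of all genes. Without coculture replicate 2, 4 fell, beside 2313 of 14134 genes. In the clone mean 10 fell and 3 rose, beside 37.3% and 39.4% of all genes. Krt8, among the 6 that fell in KPC1, was at 705, 570, 830 and 644 CPM in mono-culture and 475, 280, 393 and 376 CPM in coculture. All 4 Krt8 coculture values were below the lowest mono-culture value.

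The unfolded protein response raises chaperones and degradation machinery when the endoplasmic reticulum is loaded with unfolded protein. Of its 20 members, 16 rose and 1 fell, beside 20.1% and 19% of all genes, and the median log2 fold change was 0.47, while that over all genes was near 0. Hspa5, the major chaperone of the endoplasmic reticulum (chr2:34771970-34777547 on GRCm38), was at 1439, 1492, 1343 and 1042 CPM in mono-culture and at 3861, 5527, 3409 and 3952 CPM in coculture. The groups were far apart, with a log2 fold change of 1.66 ± 0.24 (adjusted p = 1.63e-06). Herpud1, which acts in degradation at the reticulum, rose from 58.7 ± 13.1 to 106 ± 6.66 CPM. Sel1l, the adaptor of the ubiquitin ligase in the same pathway, was at 141, 136, 143 and 91.0 CPM in mono-culture and 224, 198, 225 and 249 CPM in coculture. Mono-culture replicate 4 was the low value, and the groups stayed apart. Sec61b, a subunit of the translocation channel, was the member that fell, by 0.30 ± 0.13, and its groups overlapped. The same 16 of 20 count of rises was found without coculture replicate 2 and with the series as a covariate.

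Hspa5 is a well-known target of the unfolded protein response, and the 250 bases before its RefSeq start (GRCm38.p6, plus strand, chr2:34771840-34772089) are shown because they hold the element known as the ER stress response element. Capitals mark the match, which is CCAAT and CCACG with 9 bases of any kind between them, searched on both strands.

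Hspa5: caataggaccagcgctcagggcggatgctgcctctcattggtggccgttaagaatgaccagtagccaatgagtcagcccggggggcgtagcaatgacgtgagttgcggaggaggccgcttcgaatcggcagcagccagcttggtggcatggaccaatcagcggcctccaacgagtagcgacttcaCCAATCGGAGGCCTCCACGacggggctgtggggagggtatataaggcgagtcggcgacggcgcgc

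The match began 65 bases before the start, and 37 of 32851 promoter windows of this length (0.113%) held one. It is a description of the letters and not of binding.

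Against the clones, the unfolded protein response of KPC1 was larger for some members. The mean log2 response of the 7 clones, with each clone weighted equally, called 76.7% of all genes, 39.4% higher and 37.3% lower, and had a list median of 0.37 here, with single clones between 0.17 and 0.76. The KPC1 response exceeded the clone mean for 7 of 20 members and fell short for 1, when the difference was tested against the spread between libraries, a test that called 11.9% of all genes higher and 15.7% lower. Hspa5 exceeded the clone mean by 0.79 ± 0.25 (adjusted p = 0.0192), yet the difference was not called without coculture replicate 2, and single clones ranged from 0.23 to 1.87. Sel1l exceeded it by 0.72 ± 0.15 (adjusted p = 0.00056) and lay above all 7 clones, which ranged from -0.48 to 0.75. Tested against the spread between clones, none of these members passed, with adjusted p-values of 0.963 for Hspa5 and Sel1l.

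Lysosomal genes, which encode the degradative hydrolases, membrane proteins and proton pump of the lysosome, rose in KPC1 and were mixed in the mean of the clones. Of 25 members, 16 rose and none fell in KPC1, beside 20.1% and 19% of all genes. In the clone mean, called from 28 libraries per culture, 6 rose and 9 fell. Over all genes the clone mean called 39.4% higher and 37.3% lower. The list median was 0.41 in KPC1 and -0.04 in the clone mean, and the clones lay between -0.36 and 0.35. Clone H, at 0.35, and clone V, at 0.21, were nearest to KPC1, and the gap to H was smaller than the SD of 0.09 between KPC1 libraries in the list median. Relative to the mono-culture mean of KPC1, the list median was -0.13 to 0.06 in the 4 mono-culture libraries and 0.24, 0.36, 0.49 and 0.40 in the 4 coculture libraries, with no overlap. The KPC1 response exceeded the clone mean for 14 of 25 members and fell short for none, beside 11.9% and 15.7% of all genes. In mono-culture the list stood lower in KPC1 than in the clone mean, by a median of 0.34 on the log2 scale of CPM (gap -0.34), and in coculture the gap was 0.02.

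Hexa, a subunit of the hexosaminidase that degrades gangliosides, was at 66.3, 68.4, 67.9 and 67.8 CPM in KPC1 mono-culture and 91.2, 145, 103 and 97.1 CPM in coculture. It rose by 0.69 ± 0.16 (adjusted p = 0.000953), whereas the clone mean fell by 0.37, a difference of 1.06 ± 0.17 (adjusted p = 1.47e-05) that placed KPC1 above all 7 clones. Sqstm1, the autophagy receptor p62, rose from 932 ± 219 to 1642 ± 148 CPM, 0.82 ± 0.15 on the log2 scale, and also lay above all clones, which ranged from -0.35 to 0.70. Among Nrf2 and antioxidant targets, Ftl1, the ferritin light chain that stores iron, rose from 729, 660, 813 and 554 CPM to 860, 1160, 1264 and 1166 CPM. Its difference from the clone mean was 0.82 ± 0.17 (adjusted p = 0.000409). Without coculture replicate 2, 14 of 25 lysosomal members rose, and 11 exceeded the clone mean.

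**Figure D2:**
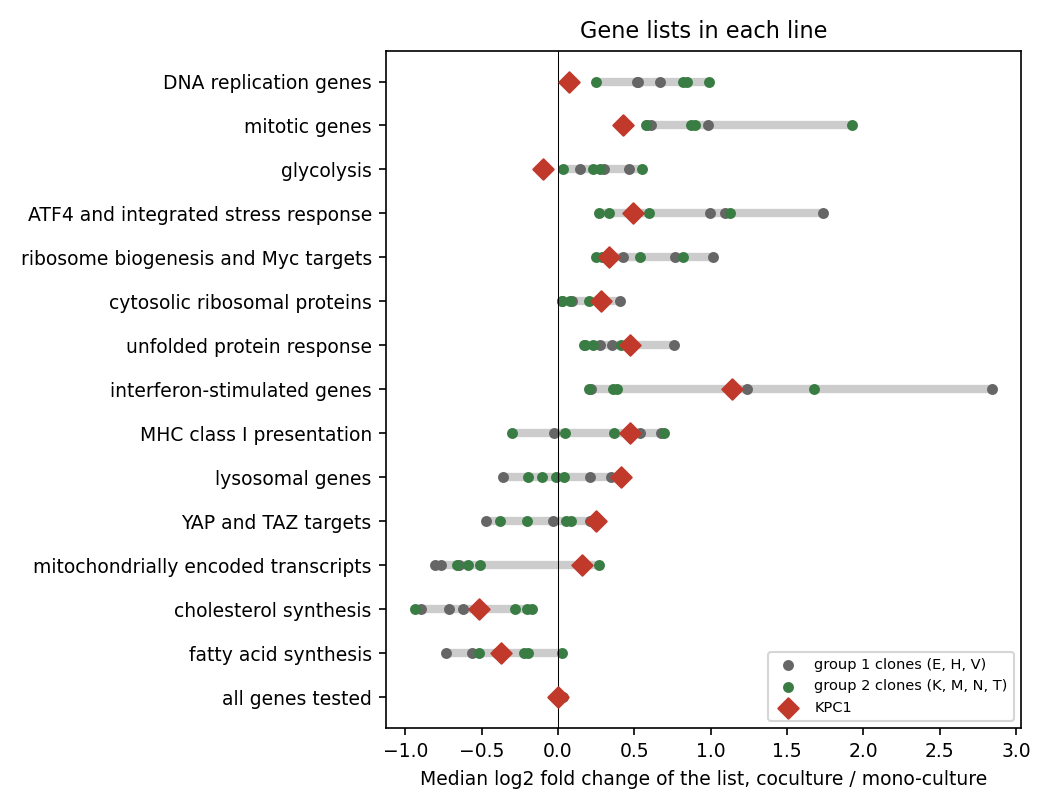
Median log2 fold change of each gene list, coculture over mono-culture (x axis), for 15 rows from DNA replication genes to all genes tested (y axis), in the group 1 clones (grey dots), the group 2 clones (green dots) and KPC1 (red diamonds). Grey bars span the 7 clones. KPC1 lies below the bar for DNA replication (0.07), mitotic (0.42) and glycolysis genes (-0.10). It lies just above the bar for lysosomal genes (0.41) and YAP and TAZ targets (0.25). For glycolysis, lysosomal and YAP and TAZ genes the gap to the bar is smaller than the SD between KPC1 libraries. Without coculture replicate 2 the YAP and TAZ median was 0.16, within the bar.

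The integrated stress response raises ATF4, which drives amino acid synthesis and transport genes. Ddit3, the transcription factor CHOP, was at 93.5, 131, 60.6 and 58.5 CPM in mono-culture and 264, 425, 283 and 249 CPM in coculture, a log2 fold change of 1.83 ± 0.30 (adjusted p = 1.01e-05). Gdf15, a stress-induced cytokine, rose from 4.45 ± 3.47 to 17.3 ± 4.14 CPM. Of the 38 members, 19 rose and 1 fell in KPC1, beside 20.1% and 19% of all genes, with a median of 0.49. The member that fell was Cbs, which makes cystathionine, from 3.20 ± 0.782 to 1.97 ± 0.460 CPM. In the clone mean, called from more libraries, 36 rose and 2 fell, beside 39.4% and 37.3% of all genes. The clone mean had a median of 0.85. KPC1 fell short of the clone mean for 15 members and exceeded it for none, beside 15.7% and 11.9% of all genes. The KPC1 median lay within the range of the clones, 0.27 to 1.74. Without coculture replicate 2, 12 members rose and 15 fell short, beside 1764 and 2062 of 14134 genes.

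Amino acid synthesis enzymes were among the members that fell short. Shmt2, the mitochondrial serine hydroxymethyltransferase, was at 528, 557, 476 and 300 CPM in KPC1 mono-culture and at 529, 414, 542 and 458 CPM in coculture. These groups overlapped, and the log2 fold change was 0.06 ± 0.21. In the clones the mean level went from 211 to 449 CPM, with responses of 0.54 to 1.77, and the difference was -1.04 ± 0.22 (adjusted p = 0.000649). Psph, the last enzyme of serine synthesis, showed the same pattern, with 122 ± 23.4 and 150 ± 6.95 CPM in KPC1 and a difference of -0.84 ± 0.22 from the clones. Pycr1, which makes proline, was at 37.3 ± 7.78 and 43.7 ± 5.27 CPM in KPC1, while clone means rose from 13.8 to 34.1 CPM. In each of these 3 genes KPC1 was below all 7 clones in response, and its mono-culture level was above the clone mean. Over the whole list, the median gap of KPC1 above the clone mean was 1.11 in mono-culture and 0.81 in coculture, on the log2 scale.

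Asns, the asparagine synthetase, was at 542, 584, 464 and 288 CPM in KPC1 mono-culture and 807, 859, 755 and 678 CPM in coculture. Groups did not overlap, with a log2 fold change of 0.72 ± 0.27 (adjusted p = 0.0349) that was not called without mono-culture replicate 4, without coculture replicate 2 or in either number series alone. Clone means went from 144 to 384 CPM, and the difference of -0.66 ± 0.29 (adjusted p = 0.0927) was close to the threshold and was lost in 12 alternatives. Atf4 itself was at 942 ± 148 and 1197 ± 25.8 CPM, a log2 fold change of 0.35 ± 0.17 that did not pass (adjusted p = 0.121). Eif2ak4, the amino acid sensing kinase GCN2, was at 39 ± 2.95 and 39.6 ± 5.18 CPM. The 250 bases before the RefSeq start of Asns (GRCm38.p6, minus strand, chr6:7693210-7693459) are shown because the gene is a classical target of ATF4. Capitals mark TGATGNAA, the core of the C/EBP-ATF response element, searched on both strands.

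Asns: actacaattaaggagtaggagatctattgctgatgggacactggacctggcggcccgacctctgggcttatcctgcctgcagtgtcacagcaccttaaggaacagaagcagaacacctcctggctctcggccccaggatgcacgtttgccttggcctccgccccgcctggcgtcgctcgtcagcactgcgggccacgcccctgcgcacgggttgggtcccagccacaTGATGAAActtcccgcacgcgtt

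The match began 23 bases before the start, and 1134 of 32851 windows (3.45%) held one.

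The list medians of DNA replication and mitotic genes were lower in KPC1 than in every clone. Responses lay below all 7 clones for 18 of 28 and 17 of 26 members, beside 15.2% of all genes. Replication genes load and fire origins and copy DNA. Of 28, 5 rose and 2 fell in KPC1, beside 20.1% and 19% of all genes. The KPC1 median was 0.07, and -0.00 when libraries were scaled by their totals alone. In the clone mean, called from 28 libraries per culture, 27 rose and 1 fell, beside 39.4% and 37.3% of all genes. Its median was 0.61, and single clones ran from 0.25 to 0.99. KPC1 fell short of the clone mean for 16 of 28 and exceeded it for none, beside 15.7% and 11.9% of all genes. The same counts for this list were found without coculture replicate 2. Ccne1, the cyclin that starts S phase, was at 7.89, 9.47, 10.9 and 7.77 CPM in mono-culture and 6.66, 8.30, 9.97 and 7.03 CPM in coculture. Those values overlapped in KPC1, while the 7 clones had responses of 0.45 to 2.16, a difference of -1.55 ± 0.24 (adjusted p = 8.55e-06). E2f1, a transcription factor of the G1 to S transition, fell from 46.6 ± 6.60 to 33.1 ± 5.76 CPM in KPC1 (-0.49 ± 0.13; adjusted p = 0.00304), although coculture replicate 3, at 41.6 CPM, lay within the mono-culture values. Cdt1, the origin licensing factor, went the other way, from 52.7 ± 15.1 to 96.4 ± 6.87 CPM, with a difference from the clones of -0.33 ± 0.19 that did not pass and a response within their range.

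Mitotic genes build the spindle and part the chromosomes. In KPC1 5 of 26 members rose, near the share of 20.1% over all genes, and none fell. In the clone mean 26 of 26 rose, beside 39.4% of all genes. The medians were 0.42 and 0.91, with clones from 0.58 to 1.93. Anln, an actin-binding protein of the cleavage furrow, was at 188, 169, 144 and 135 CPM in mono-culture and 262, 264, 203 and 255 CPM in coculture. Bub1, a checkpoint kinase, was at 64.1 ± 8.52 and 88.7 ± 8.96 CPM, which did not pass in KPC1 (0.47 ± 0.26; adjusted p = 0.16) and differed from the clone mean by -1.0 ± 0.28 (adjusted p = 0.00714). KPC1 fell short of the clone mean for 10 mitotic genes, beside 15.7% of all genes. Without coculture replicate 2 it fell short for 6, beside 2062 of 14134 genes. With same-numbered libraries taken as pairs, 14 of 26 rose in KPC1, beside 3196 of 14134 over all genes. In that fit 21 fell short of the clone mean, beside 2787 over all genes. In mono-culture KPC1 stood above the clone mean by a median of 1.31 over the mitotic list and 0.60 over the replication list. In coculture these gaps were 0.68 and 0.02.

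Among growth regulators, Myc was at 446, 547, 342 and 374 CPM in mono-culture and 697, 932, 639 and 625 CPM in coculture. It rose by 0.76 ± 0.18 (adjusted p = 0.000947), and the clone mean rose by 0.85. Trp53 was at 407, 414, 399 and 342 CPM in mono-culture and 317, 236, 438 and 364 CPM in coculture, which overlapped (-0.20 ± 0.10; adjusted p = 0.124). The clones ranged from 0.01 to 0.40 for Trp53, and the difference of KPC1 from their mean was -0.43 ± 0.11 (adjusted p = 0.00367). Of 20 p53 targets, 9 rose and 2 fell in KPC1, beside 20.1% and 19% of all genes. Plk2, a stress-induced kinase, was among those that rose, from 120 ± 42.7 to 375 ± 208 CPM. Without coculture replicate 2, 5 of the p53 targets rose, beside 1764 of 14134 genes.

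Ribosomal genes rose in KPC1, but the count rested on 1 library. Of 79 cytosolic ribosomal protein genes, 51 rose and none fell, beside 20.1% and 19% of all genes, with a median of 0.28. Without coculture replicate 2 the count that rose was 4, beside 1764 of 14134 genes, and the median was 0.12. Rpl8, of the large subunit, was at 1926, 1792, 1855 and 2067 CPM in mono-culture and 2197, 3078, 2529 and 2698 CPM in coculture, replicate 2 being the highest. In the clone mean 60 of the 79 rose and 1 fell, with a median of 0.17, and the KPC1 median lay within the clones. KPC1 exceeded the clone mean for 3 members and fell short for none, beside 11.9% and 15.7% of all genes. Rpl24, 1 of these 3, was at 27.8 ± 3.5 and 41.6 ± 2.64 CPM and lay above all 7 clones, with a difference of 0.65 ± 0.13. Ribosomal protein genes have near-identical processed copies, between which reads can be split. In the list of ribosome biogenesis factors and Myc targets 19 of 31 rose, with 9 without coculture replicate 2. Gnl3, a nucleolar GTPase, was at 146, 154, 152 and 139 CPM in mono-culture and 216, 372, 209 and 245 CPM in coculture. KPC1 fell short of the clone mean for 9 biogenesis factors and exceeded it for 1, with 15 and 0 without coculture replicate 2.

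Transcripts of lipid synthesis genes were lower. Of 24 cholesterol synthesis genes, 15 fell and none rose in KPC1, beside 19% and 20.1% of all genes, with a median of -0.52. Without coculture replicate 2, 7 fell, beside 2313 of 14134 genes. Relative to the mono-culture mean of KPC1, the cholesterol list median was -0.13, -0.14, -0.14 and 0.41 in mono-culture. In coculture it was -0.58, -1.40, -0.29 and -0.12, with overlap, and the SD between KPC1 libraries was 0.45. Dhcr7, the last step to cholesterol, was at 44.2, 55.1, 42.4 and 75.4 CPM in mono-culture and 24.4, 13.7, 36.5 and 39.6 CPM in coculture (-0.92 ± 0.22; adjusted p = 0.00142). Sc5d, which acts just before it, fell from 157 ± 32.5 to 98.2 ± 29.7 CPM. The clone mean had 21 of 24 lower, beside 37.3% of all genes, and a median of -0.59. The KPC1 response was called above the clone mean for 1 cholesterol gene and below it for none. Those shares over all genes were 11.9% and 15.7%. Without coculture replicate 2, 5 cholesterol genes were above the clone mean. Of 13 fatty acid synthesis genes, 8 fell and none rose, and 5 fell without coculture replicate 2. Library medians of this list overlapped between the cultures as well. Fads2, a desaturase, was at 189, 209, 178 and 260 CPM in mono-culture and 125, 59.4, 144 and 137 CPM in coculture.

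**Figure D3:**
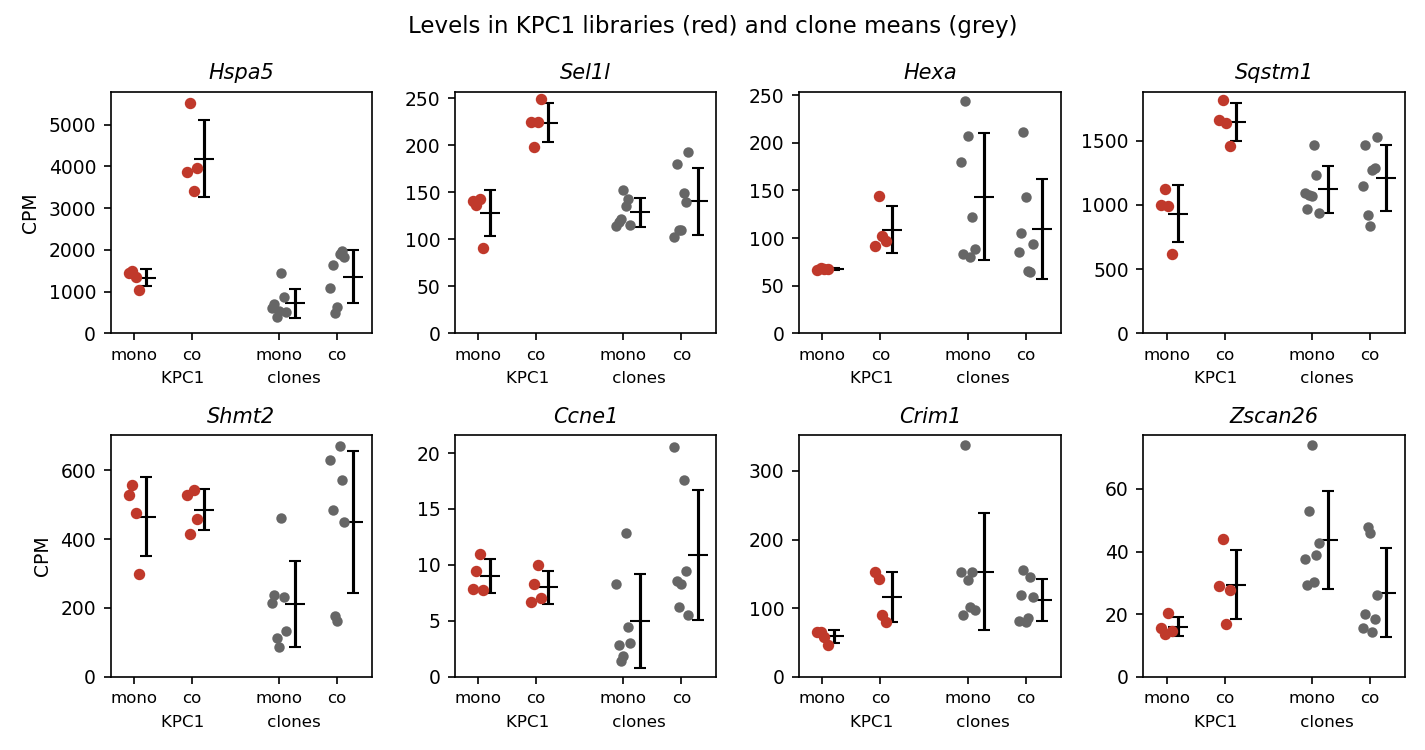
CPM (y axis, from 0) of 8 genes in mono-culture and coculture. Red dots are the 4 libraries of KPC1, grey dots the means of the 7 clones, and black bars the mean and SD of the dots. KPC1 coculture libraries of Hspa5 lie from 3409 to 5527 CPM, above every mono-culture library, whereas Shmt2 and Ccne1 overlap between the cultures in KPC1 and rise in the clones.

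Interferon-stimulated genes, which restrict viruses and are driven by IRF factors, rose in KPC1 from low levels. Of 33 tested, 18 rose and 1 fell, beside 20.1% and 19% of all genes, with a median of 1.14. The same 18 of 33 count was found without coculture replicate 2. Members near 0 in mono-culture could pass the filter on low counts through coculture alone, which fixes their direction. Irf7, a regulator of interferon genes, was at 0.189, 0.583, 0.114 and 0.292 CPM in mono-culture and 2.00, 1.32, 4.77 and 3.86 CPM in coculture (3.36 ± 0.56; adjusted p = 1.55e-05). Usp18, which dampens interferon receptor signalling, rose from 0.117 ± 0.104 to 1.70 ± 0.607 CPM. Parp14, a mono-ADP-ribosyltransferase, was the member that fell, from 19.9 ± 4.12 to 11.9 ± 5.41 CPM. Compared with the clone mean, 4 members were higher in response and 7 lower (2 and 6 without coculture replicate 2). These counts were near the shares over all genes, 11.9% higher and 15.7% lower. Single clones had medians from 0.20 to 2.84. Oasl1, an inhibitor of translation, was at 1.06 ± 0.290 and 1.39 ± 0.827 CPM in KPC1, while the clones had responses of 0.85 to 5.53 from a mean of 0.154 CPM.

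Antigen presentation genes load peptides on the cell surface, and chemokines recruit leukocytes. Of 13 class I presentation genes, 5 rose and none fell, beside 20.1% and 19% of all genes. H2-D1, a class I heavy chain, was at 119, 128, 113 and 117 CPM in mono-culture and 154, 183, 191 and 195 CPM in coculture (0.60 ± 0.15; adjusted p = 0.0016). Of 26 chemokines and NF-kB targets, 11 rose and 1 fell in KPC1, beside the same shares. Compared with the clone mean, 2 of the 26 were higher in response and 6 lower, beside 11.9% and 15.7% of all genes. The KPC1 median of this list, 0.31, lay within the clones, which ran from 0.03 to 1.13. Csf1, a growth factor of macrophages, rose from 209, 328, 164 and 186 CPM to 644, 764, 391 and 319 CPM. The lowest coculture value was below the highest mono-culture value, and the log2 fold change was 1.25 ± 0.23 (adjusted p = 4.86e-05). Nfkbia, the inhibitor that NF-kB itself induces, rose from 43.4 ± 5.29 to 64.1 ± 9.55 CPM and exceeded all 7 clones, with a difference of 0.74 ± 0.20 (adjusted p = 0.0047). Cx3cl1, a membrane-bound chemokine, was the member that fell, from 74.9 ± 7.28 to 33.9 ± 9.18 CPM. Ccl5, which attracts T cells, was at 5.43, 7.97, 6.61 and 6.14 CPM in mono-culture and 7.25, 8.02, 10.1 and 5.45 CPM in coculture, with overlap. The 7 clones had Ccl5 responses of 0.93 to 5.26, and the difference was -3.23 ± 0.37 (adjusted p = 1.97e-08).

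Targets of YAP and TAZ, coactivators that respond to matrix stiffness, had 9 of 21 members that rose and 2 that fell in KPC1. The shares over all genes were 20.1% and 19%. In the clone mean 4 rose and 8 fell, beside 39.4% and 37.3% of all genes, with a list median of -0.06. The KPC1 median of 0.25 was above every clone, the highest of which was at 0.21, a gap smaller than the SD of 0.15 between KPC1 libraries in the list median. Without coculture replicate 2 the KPC1 median was 0.16 and with libraries scaled by their totals alone 0.18, both below clone H at 0.21. Crim1, a membrane protein that binds growth factors, was at 65.6, 65.3, 58.7 and 45.8 CPM in mono-culture and 153, 142, 89.8 and 79.9 CPM in coculture. It rose by 0.98 ± 0.22 in KPC1, whereas the clone mean fell by 0.36, a difference of 1.34 ± 0.23 (adjusted p = 4.03e-05). Epha2, a receptor of ephrins and a target of ERK signalling, went from 135, 187, 146 and 112 CPM to 356, 422, 211 and 165 CPM, with overlap through coculture replicate 4, and differed from the clone mean by 1.20 ± 0.24 (adjusted p = 0.000267). ERK output was otherwise mixed, with 5 of 18 genes higher and 5 lower, and 2 and 4 without coculture replicate 2. Fosl1, a partner in AP-1, was at 201, 221, 143 and 121 CPM in mono-culture and 352, 471, 287 and 237 CPM in coculture. Etv5, an ERK-induced transcription factor, fell from 83.3 ± 11.9 to 59.5 ± 12.3 CPM, with overlap.

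Glycolysis genes did not rise as a list. Of 22, 2 rose and 1 fell in KPC1, beside 20.1% and 19% of all genes. In the clone mean, called from more libraries, 16 rose and 3 fell, beside 39.4% and 37.3% of all genes. The KPC1 median of -0.10 was below every clone, the lowest of which was at 0.03. This gap was smaller than the SD of 0.27 between KPC1 libraries in the list median. The KPC1 median was 0.01 without coculture replicate 2. KPC1 fell short of the clone mean for 8 members, beside 15.7% of all genes. Without that library it fell short for 5, and no member rose or fell. Of 22 hypoxia targets, 4 rose, near the share of 20.1% over all genes, and none fell. Ndrg1, a stress-response gene, was at 287, 247, 170 and 159 CPM in mono-culture and 546, 464, 475 and 497 CPM in coculture. Its response of 1.20 ± 0.25 exceeded the clone mean by 0.94 ± 0.26 (adjusted p = 0.00804). That response lay within the clones, which ranged from -0.88 to 1.30, with clone V at 1.20 and clone H at 1.30. Plod2, which hydroxylates collagen lysines, was at 77.8 ± 22.5 and 82.1 ± 21.4 CPM in KPC1 and below all 7 clones in response, with a difference of -1.08 ± 0.32.

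Transcripts of the mitochondrial genome encode core subunits of the respiratory chain. In KPC1 1 of 11 members rose and 1 fell, beside 20.1% and 19% of all genes. In the clone mean 10 of 11 fell, beside 37.3% of all genes. Responses in KPC1 exceeded the clone mean for 6 members, and for 2 without coculture replicate 2. mt-Cytb, of complex III, was at 5387, 4448, 4500 and 7136 CPM in mono-culture and 4169, 4033, 3509 and 3302 CPM in coculture, a fall of the same order as in the clones (-0.52 and -0.60). Of 74 nuclear-encoded subunits, 13 rose, near the share of 20.1% over all genes, and 4 fell. Without coculture replicate 2 the counts were 4 and 11. The mitochondrial list median of KPC1, 0.15, lay within the clones, with clone K at 0.27. Immediate-early genes had 1 of 17 higher and 1 lower in KPC1 and 2 higher and 12 lower in the clone mean, and the KPC1 median of -0.10 lay within the clones, which ran from -1.07 to 0.46. Btg2, which restrains proliferation, was at 8.84 ± 0.949 and 7.22 ± 1.08 CPM in KPC1, while the clone mean fell from 79.9 to 19.3 CPM. Vcl, the focal adhesion protein vinculin, was at 412, 388, 329 and 364 CPM in KPC1 mono-culture and 317, 179, 320 and 308 CPM in coculture, and its fall was not called without replicate 2.

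Over all genes, the KPC1 response differed from the mean response of the clones for 3904 of 14134 genes (27.6%) when tested against the spread between libraries, with 1680 (11.9%) higher and 2224 (15.7%) lower. The difference was at least 1 in size on the log2 scale for 817 genes (5.78%). The KPC1 response lay above all 7 clones for 1756 genes (12.4%), below all for 2142 (15.2%) and within their range for 10236 (72.4%). Among the 3904, KPC1 lay outside the range of all 7 clones for 2614, above in 1176 (30.1%) and below in 1438 (36.8%), and within it for 1290 (33%). Tested against the spread between the clones, on counts summed per line and culture, none of 16917 genes (0.0%) passed with edgeR, the smallest adjusted p being 0.963. At an unadjusted p-value under 0.05 this test had 648 genes (3.83%), and DESeq2 called 1 gene. The split of the KPC1 response minus mean clone response, library spread, moved with scaling, with 1680 of 3904 calls higher and, when libraries were scaled by their totals alone, 1166 of 4191.

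Genes called in the same direction in KPC1 and in the clone mean numbered 4136 (29.3%), and 506 (3.58%) were called in opposite directions. Zscan26, a zinc finger gene, was at 15.5, 13.7, 20.3 and 14.7 CPM in KPC1 mono-culture and 29, 43.9, 17 and 27.7 CPM in coculture. Coculture replicate 3 lay within the mono-culture values. The rise was 0.86 ± 0.23, while the 7 clones had responses of -1.28 to -0.15, and the difference was 1.65 ± 0.24 (adjusted p = 2.52e-06). Maf, a transcription factor of the AP-1 superfamily, was at 6.25, 9.01, 7.18 and 7.83 CPM and 19, 24.1, 13.3 and 12.9 CPM. Its rise of 1.18 ± 0.43 was not called without coculture replicate 2, while clone responses ran from -2.83 to 0.87. Mt2, a metallothionein, stood apart through 1 library: coculture replicate 2 had 16.9 CPM and the other 7 libraries 0.583 to 1.20 CPM. The clones had Mt2 responses of -5.31 to -0.10.

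With a rise in the clone mean and a fall in KPC1, Gad2, which makes the transmitter GABA, was at 11.9, 9.72, 5.81 and 11.5 CPM in KPC1 mono-culture and 3.93, 2.83, 5.08 and 2.98 CPM in coculture. It fell by 1.38 ± 0.33 (adjusted p = 0.00123). Clones H and V, at 31.2 and 11.8 CPM in mono-culture, also had responses below 0, of -0.99 and -0.75, and the other 5 clones, at 0.0759 to 0.497 CPM, had responses above 0. Sox7, an endothelial and endodermal transcription factor, fell from 13.4 ± 1.38 to 7.14 ± 2.31 CPM in KPC1. Clones H and V likewise started high for Sox7, at 26.7 and 28.8 CPM, with responses below 0, while the other 5 started at 0.22 to 6.18 CPM with responses above 0. Rgs2, a regulator of G protein signalling, was at 50.1, 42.4, 37 and 66.0 CPM in KPC1 mono-culture and 14.4, 9.05, 42.4 and 37.4 CPM in coculture, with overlap, and its fall was lost in 11 alternatives.

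For some genes with large differences, KPC1 and clones H or V had counts in mono-culture while other clones were near 0. Col11a1, a fibrillar collagen, was at 58.8, 59.4, 22.7 and 49.8 CPM in KPC1 mono-culture and 67.9, 32.2, 48.7 and 70 CPM in coculture, a log2 fold change of 0.20 ± 0.32. Clones H and V had 52.8 and 55.1 CPM in mono-culture and responses of 0.61 and 0.65, whereas the other 5 started at 0.111 to 1.55 CPM with responses of 3.03 to 7.16. Col4a6, a basement membrane collagen chain, was at 14.4 ± 2.90 and 16.1 ± 4.55 CPM in KPC1, and of the clones V had 25.1 CPM in mono-culture and the next highest, T, 1.05 CPM. The differences from the clone mean were -3.45 ± 0.40 for Col11a1 and -4.90 ± 0.43 for Col4a6, and the fitted folds of clones near 0 depend on the prior count. Kcne3, a potassium channel subunit, fell in KPC1 from 5.08 ± 2.53 to 0.628 ± 0.142 CPM, below all 7 clones, which ranged from -1.29 to 1.55.

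Mark1, a microtubule affinity kinase, had 2 counts in the 4 mono-culture libraries of KPC1 and 0.929 ± 0.368 CPM in coculture, a ratio of 30.9 with a counting interval from 8.16 to 262. Its response was below 0 in 4 clones and above 0 in 3. Msrb3, a methionine sulfoxide reductase, was at 0.189, 0.583, 0.798 and 0.701 CPM in mono-culture and 6.12, 2.74, 4.09 and 7.16 CPM in coculture, a rise of 3.13 ± 0.44 (adjusted p = 8.76e-07). Its response exceeded all 7 clones, which ranged from -0.73 to 2.72, and its level in both cultures was below the clone means of 15.5 and 12.3 CPM.

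**Figure D4:**
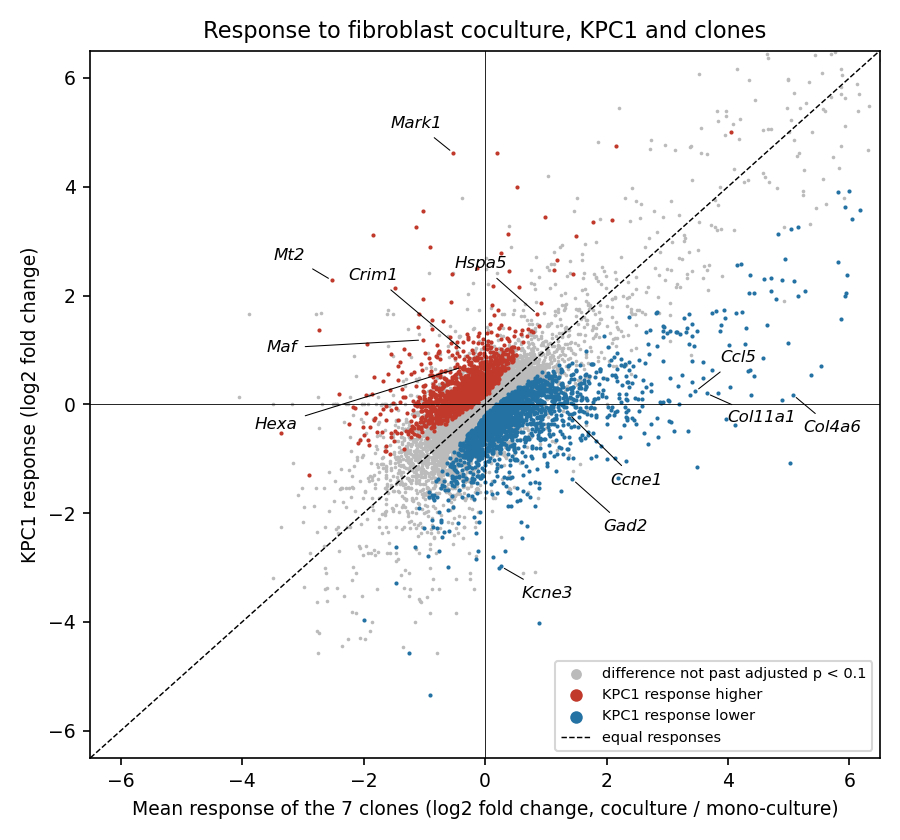
Log2 fold change of each gene in KPC1 (y axis) against the mean of the 7 clones (x axis), both from coculture over mono-culture. Red and blue genes differed at an adjusted p-value under 0.1 against the spread between libraries, 1680 higher and 2224 lower in KPC1. The dashed line marks equal responses, and 71 genes lie outside the axes at 6.5.

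The remaining lists are given beside 20.1% higher and 19% lower over all genes, and several counts lay near those shares. Of 9 Wnt targets, 2 rose and 4 fell, and of 10 BMP targets 2 rose and 5 fell. TGF-beta targets had 6 of 17 higher and 6 lower, and mesenchymal transition genes 7 of 20 higher and 4 lower. Basement membrane genes had 4 of 17 higher and none lower, integrins 6 of 13 higher and 2 lower, and matrix proteases and inhibitors 5 of 19 higher and 4 lower. Of 22 Nrf2 and antioxidant targets, 3 rose and 5 fell (4 and 2 without coculture replicate 2), of 12 heat shock genes 2 rose and 3 fell, and of 12 STAT3 and acute-phase genes 2 rose and 4 fell. Ephrins and their receptors had 3 of 15 higher and 6 lower, EGF family genes 4 of 11 higher and 1 lower (1 and 0 without coculture replicate 2), Notch genes 2 of 11 higher and 1 lower, and IGF and AXL genes 1 of 14 higher and 3 lower.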

How the data were processed

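RNA was sequenced as polyadenylated, strand-specific, paired-end libraries. The authors deposited raw counts of reads per gene for 39017 genes in 64 libraries, without normalization, and RPKM values, scaled by gene length and library total, for 49585 genes. Per the labels, featureCounts and edgeR were used on mm10; the aligner and annotation are not given in the sources used here. Positions came from GENCODE M21.

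Counts were tested with edgeR 4.0.16 (R 4.3.3) by quasi-likelihood on all 64 libraries after filterByExpr and TMM, with 1 coefficient per line and culture. P-values were adjusted by Benjamini-Hochberg and called below 0.1. The KPC1 response, and its difference from the clone mean, came from this fit. The difference was tested again on 16 sums per line and culture, with 6 residual degrees of freedom. Library totals were 11178721 to 21333683 counts, and 3 counts over 4 KPC1 libraries were 0.0455 CPM in mono-culture. Intervals and floors cover counting error alone.

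Genes were named by rule. The largest changes had to be called, at 5 CPM or more, with no overlap between cultures. Differences from the clones came from the library-spread test, outside all 7 clones, since none passed against the clone spread. Genes called in opposite directions, those with the smallest p-values in each of 41 lists, the genes named for the study and 6 fibroblast markers completed the rule, and a part of the genes it gave is named. The members and lists were chosen with earlier results of these data known. Symbols not matched or under the filter were left out. Scripts were tested on simulated data. Alternatives were DESeq2 1.42.0, limma 3.58.1 on log2 RPKM with pseudocounts of 1 and 0.1, other scaling and filters, KPC1 alone, number series, replicate block, and leaving out each KPC1 library and each clone. No column was left unused. Some named genes are not reported here.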

Additional observations from a re-analysis of the deposited data

Results flagged for a closer look

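Among 156 sets of 4 KPC1 libraries checked for a sample far from the rest, 12 were marked, where chance marks about 1 in 20. The measure is the gap of the most extreme library to its nearest neighbour as a share of the range, judged by the 95% critical value of Dixon's test. In mono-culture it was 1 for Lox and 1 for Fap, each with a single count in replicate 3, 0.833 for Kcnh1 (replicate 3 high), 0.879 for Sel1l (replicate 4 low), 0.957 for Rpl24 (replicate 2 high), 0.899 for Sc5d (replicate 4 high) and 0.88 for Cx3cl1 (replicate 4 high). In coculture the extreme library was replicate 2 for the library total (0.867), Ceacam1 (0.934) and Vcl (0.916), all low, and for Mt2 (0.986), which was high. It was replicate 3 for Anln (0.845), which was low.

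The other marked results are differences of the KPC1 response from the mean response of the clones, on the log2 scale, called by edgeR against the spread between libraries. None of them passed against the spread between clones. In the stress and secretory genes they were 0.793 for Hspa5, 0.384 for Herpud1, 0.715 for Sel1l, -0.421 for Sec61b, -0.664 for Asns, -0.838 for Psph, -1.04 for Shmt2 and -1.02 for Pycr1. For lysosomal, antioxidant and lipid genes the values were 0.725 for Sqstm1, 1.06 for Hexa, 0.824 for Ftl1 and -0.478 for Fads2. Proliferation and p53 genes gave -0.427 for Trp53, -0.804 for E2f1, -1.55 for Ccne1, -1.0 for Bub1 and 1.54 for Btg2. Hypoxia and ribosomal genes gave 0.94 for Ndrg1, -1.08 for Plod2 and 0.655 for Rpl24. Immune genes gave 1.58 for Irf7, -2.99 for Oasl1, 0.558 for Csf1, 0.743 for Nfkbia and -3.23 for Ccl5. Signalling genes gave 1.34 for Crim1, 1.2 for Epha2 and -0.629 for Etv5.

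Of the genes with the largest differences, those higher in KPC1 were 5.15 for Mark1, 4.8 for Mt2, 2.76 for Msrb3, 2.21 for Maf and 1.65 for Zscan26. Those lower in KPC1 were -4.9 for Col4a6, -3.45 for Col11a1, -3.24 for Kcne3, -2.82 for Gad2, -2.1 for Rgs2, -1.98 for Lgr5, -1.88 for Sox7 and -1.82 for Tbx2.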

How the results depend on the processing

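For the KPC1 coculture response, 5534 genes were called, and 3525 with the KPC1 libraries alone, 2763 in the first number series alone and 383 in the second alone, where fewer libraries entered. Leaving out each KPC1 library gave 4098 to 5398 calls. For the KPC1 response minus mean clone response, library spread, leaving out each library gave 3162 to 4131 calls against 3904, and leaving out each clone 3293 to 4502. For the KPC1 response minus mean clone response, clone spread, DESeq2 called 1 gene and every edgeR alternative run called 0. The KPC1 fibroblast marker level differed by 844 to 1208 CPM when 1 library was left out, and 4 against 3 libraries cannot give an exact p under 0.0571.

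Of 103 named gene results, 2326 values were computed under the alternatives, of which 2164 kept direction and call, 161 lost the call and 1 turned. That 1 was the KPC1 response minus mean clone response, library spread: Lgr5, at 0.0486 by limma on log2(RPKM + 1) against -1.98, and the cause was not tested. Asns, Csf1, Irf7 and Fads2 each lost their difference from the clones in 10 or more alternatives. The median over all genes of the difference from the clones was -0.03, and -0.11 without TMM. Without TMM, 32 of 79 ribosomal proteins rose in place of 51, respiratory chain subunits had 8 higher and 11 lower in place of 13 and 4, YAP and TAZ targets exceeded the clones for 3 in place of 6, and 5 integrins fell in place of 2. With the series as a covariate, 2 hypoxia targets, 1 EGF family gene, 3 ERK genes, 3 matrix proteases or inhibitors and 0 glycolysis genes rose, and mitochondrial transcripts exceeded the clones for 2 in place of 6.

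Replicate numbers were shared between the cultures. Over all 8 lines same-numbered libraries had correlations of -0.07 to 0.29, and in the clones all 28 were above 0. Same-numbered KPC1 libraries had deviations correlated at -0.07 to 0.16 and other pairs at -0.18 to 0.09. Of the 4 mono-culture libraries, 2 correlated best with their own number. The main fit did not take the numbers as pairs, although the clone values were all above 0. Counts that move with the replicate block depend on this choice. With the replicate block the KPC1 coculture response had 6292 calls and the KPC1 response minus mean clone response, library spread, had 4813, and 14 of 26 mitotic genes rose in place of 5 while 21 in place of 10 fell short of the clones. Hypoxia targets had 6 lower in place of 0, and 8 in place of 2 short of the clones.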
